A study of Mus musculus with 24 samples.

Results

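Bile acid synthesis and transport in liver is carried by a small set of genes, and 10 of them were followed here across the 24 mouse liver arrays of this study. They are Cyp7a1, Cyp7b1, Cyp8b1 and Cyp27a1 (synthesis), Abcb11 (canalicular export), Slc10a1, Slco1a1 and Slco1b2 (uptake from blood), and Nr1h4 and Nr0b2 (nuclear receptors of the feedback loop). Every probe set annotated to one of these genes alone was taken, without regard to its values, which gave 20 probe sets of the 45037 tested and 10 genes of the 18193 that have at least 1 such probe set. The genes themselves were chosen with earlier results of these data known, so counts of them beside all probe sets are a description only.

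Hepatocytes make bile acids from cholesterol along a classic route that opens with CYP7A1 and an alternative route that opens with CYP27A1 and continues with CYP7B1, and CYP8B1 sets the share of cholic acid. BSEP, the product of Abcb11, pumps conjugated bile salts into the canaliculus, while NTCP (Slc10a1) and the OATP carriers encoded by Slco1a1 and Slco1b2 take them up again from sinusoidal blood. Bile acids bind FXR (Nr1h4), which induces Abcb11 and SHP (Nr0b2), and SHP lowers the transcription of Cyp7a1 and Cyp8b1.

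Male C57BL6/J mice, 8 weeks old at the start, received siKeap1-1, siKeap1-2 or siControl, a scrambled siRNA without a target, with 8 mice and 8 arrays per group. All 3 groups ate a Western diet (high fat chow with 6% sucrose in the drinking water) and were given 1 mg of chemically modified siRNA per kg body weight each week for 7 weeks through the tail vein, formulated in lipid nanoparticles for delivery to the liver. Both active siRNAs are directed against Keap1, the repressor of the transcription factor Nrf2, and no mice on standard chow or without siRNA were part of the series. According to the methods, each group held 4 fed and 4 fasted animals. Which arrays these were is not in the labels, and feeding was therefore not entered in the fit.

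The values are log2 signals of Affymetrix whole genome arrays, and levels are compared between groups within a probe set, never between probe sets. Keap1 was at 7.21 to 7.93 with siKeap1-1 and at 8.03 to 8.59 with siKeap1-2, against 9.33 to 10.03 with siControl, and Nqo1, a target of Nrf2, rose by 2.22 and 1.91 on the log2 scale. The summed signal of 5 hepatocyte markers was 16.8 to 16.89 with siKeap1-1, 16.83 to 16.91 with siKeap1-2 and 16.84 to 16.91 with siControl, and none of them was called. The sum mostly follows the 4 brightest (Alb, Apoa1, Ttr and Serpina1c), which differed by -0.04 to 0.003 with siKeap1-1 and by -0.02 to 0.008 with siKeap1-2. Tat, the dimmest, differed by -0.52 and -0.42 (limma, adjusted p = 0.0569 and 0.159). Of 5 cholangiocyte markers only Sox9 was called, higher by 0.87 with siKeap1-1 and 0.96 with siKeap1-2. The other 4 (Krt7, Krt19, Epcam and Cftr) differed by -0.21 to 0.22 with siKeap1-1 and by -0.38 to -0.20 with siKeap1-2, and the summed signal of the 5 was 9.46 to 9.97 and 9.41 to 9.97, against 8.95 to 9.71 with siControl. The 6 Kupffer cell markers did not move one way. Vsig4 differed by -0.60 with siKeap1-1 (called) and -0.41 with siKeap1-2 (not called), Marco by 0.69 (not called) and 1.49 (called), and the other 4 by -0.55 to -0.10 and -0.44 to -0.02. Their sum was 13.29 to 14.06 with siKeap1-1 and 13.26 to 14.37 with siKeap1-2, against 13.41 to 14.2 with siControl. No endothelial, stellate or lymphocyte marker was called, and the part of these cells in the results was not tested. The array's own probe set for 18S ribosomal RNA, a control, was at 10.17 to 10.44 in siKeap1-1 replicates 1 to 3 and at 11.17 to 11.43 in replicates 4 to 8. In siControl it was at 10.34 to 10.77 in replicates 1 to 3 and at 8.86 to 9.54 in replicates 4 to 8, while in siKeap1-2 all 8 arrays lay between 10.45 and 11.12. In replicates 1 to 3 the siKeap1-1 and siControl ranges of 18S therefore overlapped, and in replicates 4 to 8 they did not. In whole liver, fewer cells of a type and less RNA per cell cannot be told apart.

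**Figure D1:**
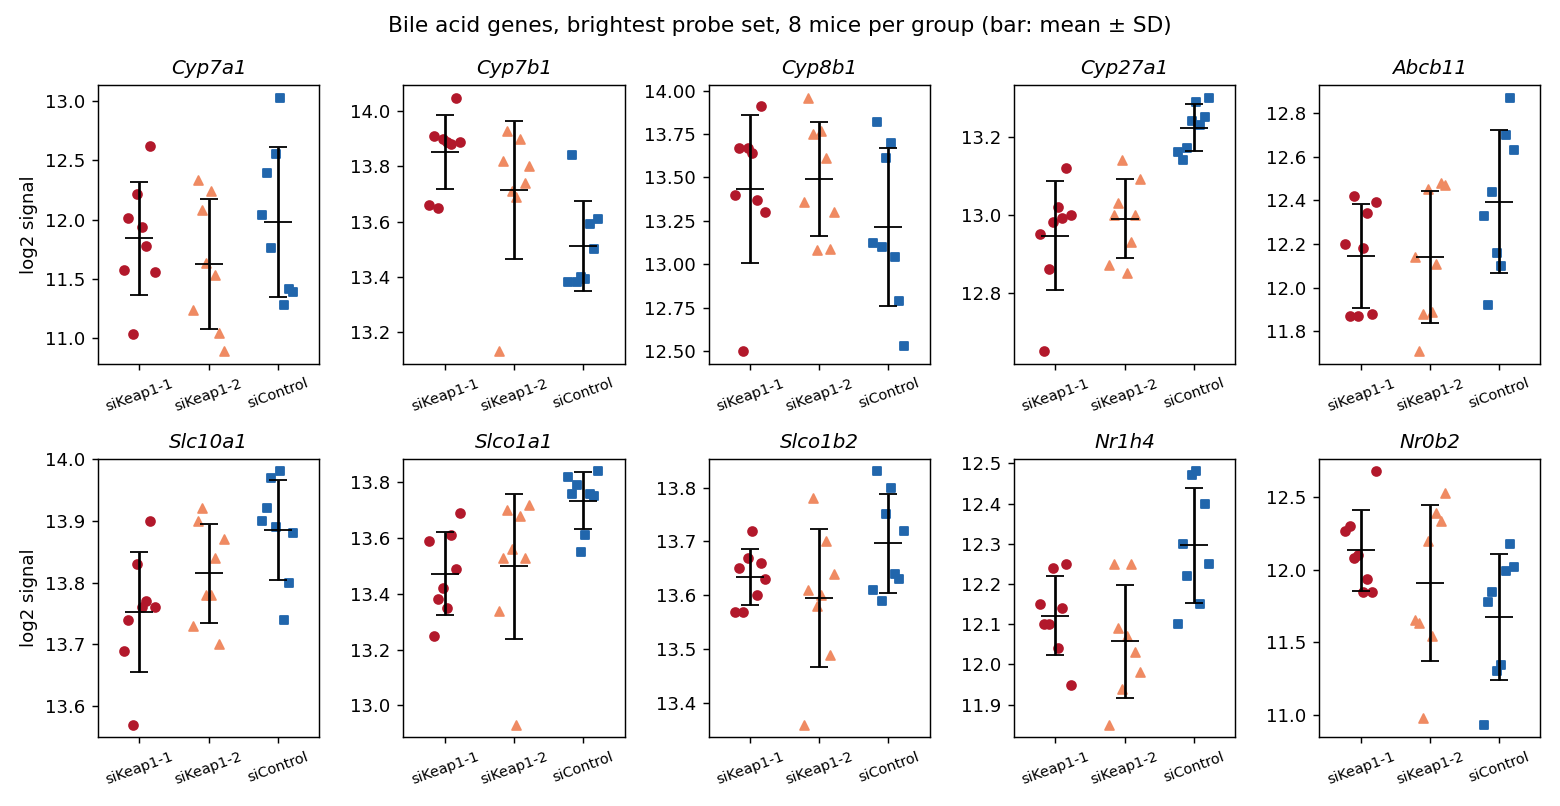
Log2 signal of the brightest probe set of each of the 10 bile acid genes (y axis) in siKeap1-1, siKeap1-2 and siControl livers (x axis), 1 point per mouse, with bars for the mean ± SD of 8 mice. All 8 siKeap1-1 points of Cyp27a1 lie below all 8 siControl points, whereas the groups overlap for the other 9 genes.

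With siKeap1-1, 4 of the 20 probe sets had an adjusted p under 0.05 (limma, Benjamini-Hochberg over all probe sets), beside 8.99% of all probe sets tested. The 2 that rose, beside 4.51% of all, both belong to Cyp7b1, and the 2 that fell, beside 4.48%, belong to Cyp27a1 and Slco1a1. With siKeap1-2, 2 of the 20 were called, Cyp27a1 and Nr1h4, both lower, beside 6.1% of all probe sets called and 2.96% called lower. Between siKeap1-1 and siKeap1-2 limma called 0 of the 20, beside 0.162% of all probe sets, and 1 of the 20 had an unadjusted p under 0.05, beside 9.3%.

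The changes in log2 signal were small, and for genes with several probe sets their size varied with the probe set, as given below. No member probe set changed by more than 2-fold at an unadjusted p under 0.01 with either siRNA, against 0.617% of all probe sets with siKeap1-1 and 0.557% with siKeap1-2. A threshold of 0.01 left 1 of the 20 called with siKeap1-1 and 0 with siKeap1-2, beside 3.83% and 2.2%. The median log2 difference over the 20 probe sets was 0.06 with siKeap1-1 and -0.10 with siKeap1-2, beside 0.02 and 0.003 over all probe sets. At an unadjusted p under 0.05, 13 of the 20 passed with siKeap1-1 (7 higher, 6 lower), beside 23% of all probe sets, and 8 with siKeap1-2 (4 in each direction), beside 20.5%. Several of the 20 probe sets belong to the same gene, so these counts are not counts of genes. Both comparisons use the same 8 siControl arrays, and the siRNAs are therefore given side by side.

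**Figure D2:**
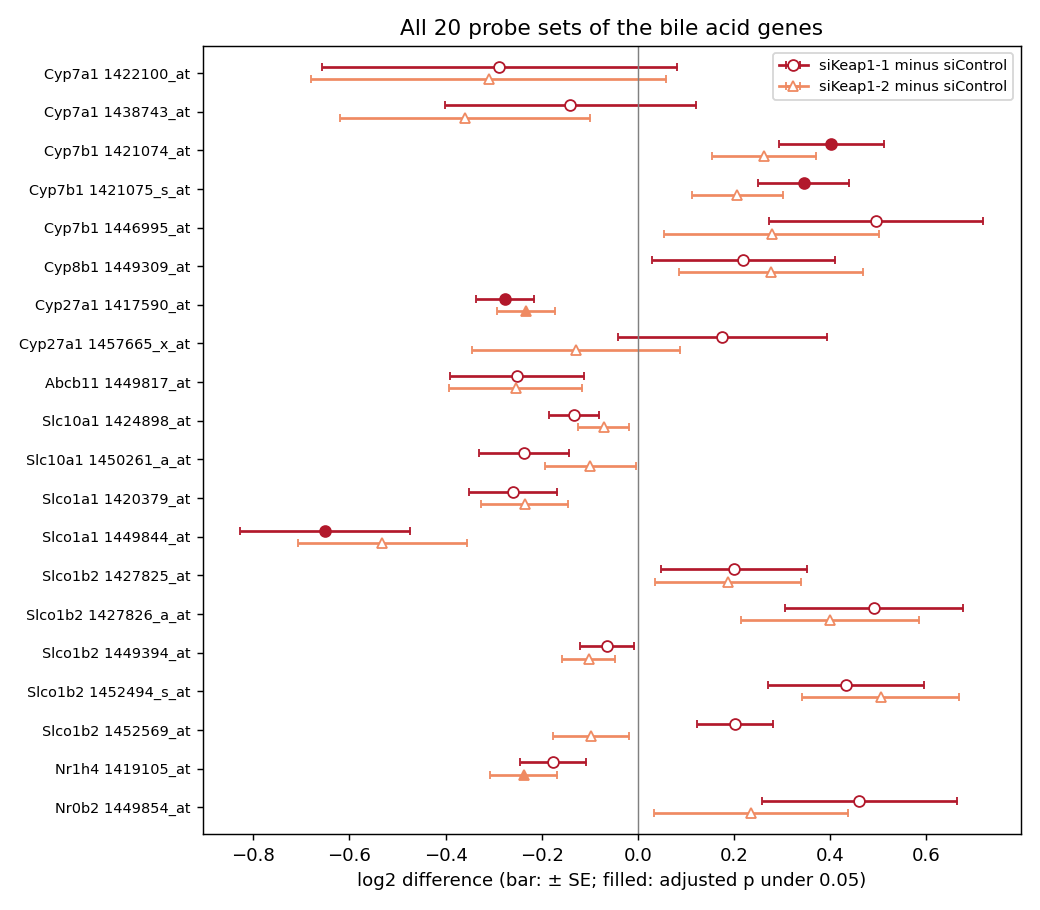
Log2 difference from siControl (x axis, bars ± SE of the fit) of all 20 probe sets of the bile acid genes (y axis), circles for siKeap1-1 and triangles for siKeap1-2, 8 mice per group, filled where the adjusted p was under 0.05. The filled symbols are Cyp7b1 (2 probe sets, siKeap1-1), Cyp27a1 (both siRNAs), Slco1a1 1449844_at (siKeap1-1) and Nr1h4 (siKeap1-2).

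Cyp27a1, the mitochondrial sterol 27-hydroxylase, fell with both siRNAs. Its probe set 1417590_at was at 12.65, 12.99 and 13.12 (lowest, median and highest log2 signal) with siKeap1-1 and at 12.85, 13.0 and 13.14 with siKeap1-2, against 13.14, 13.23 and 13.3 with siControl. The siKeap1-1 and siControl mice did not overlap, as in 1.45% of all probe sets, and 7 of the 8 siKeap1-2 mice were below every siControl mouse, with full separation in 1.21% of all probe sets. The log2 difference was -0.28 with siKeap1-1 (SE 0.0598, adjusted p = 0.00424, 0.826-fold) and -0.23 with siKeap1-2 (SE 0.0598, adjusted p = 0.0204, 0.851-fold). The fall was present in both sets of replicate numbers. With siKeap1-1 it was -0.34 in replicates 1 to 3 and -0.24 in replicates 4 to 8. With siKeap1-2 it was -0.19 and -0.26. With the 18S signal as a covariate the differences were -0.28 and -0.24, with adjusted p = 0.0728 and 0.289. The second probe set, 1457665_x_at, of a kind whose probes may also bind other transcripts, was dim (means of 4.66, 4.36 and 4.49 in siKeap1-1, siKeap1-2 and siControl) and its difference was 0.18 and -0.13 (adjusted p = 0.691 and 0.798). Averaged over both probe sets the difference was -0.05 and -0.18 and was not called (adjusted p = 0.842 and 0.387).

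Cyp7b1, the oxysterol 7α-hydroxylase that follows CYP27A1 on the alternative route, was higher with siKeap1-1. The brightest probe set, 1421075_s_at, was at 13.65, 13.89 and 14.05 with siKeap1-1 and at 13.13, 13.77 and 13.93 with siKeap1-2, against 13.38, 13.45 and 13.84 with siControl. Of the siKeap1-1 mice 6 exceeded every siControl mouse, and a single siControl mouse (replicate 2, at 13.84) reached the range of the siKeap1-1 mice. The log2 difference was 0.34 (SE 0.0943, adjusted p = 0.0212) with siKeap1-1 and 0.21 (adjusted p = 0.21) with siKeap1-2, and that of 1421074_at was 0.40 (adjusted p = 0.0201) and 0.26 (adjusted p = 0.165). Replicate 1 of siKeap1-2 was far below its group in both probe sets, and without it the siKeap1-2 difference was 0.29 (adjusted p = 0.0219) in 1421075_s_at and 0.35 (adjusted p = 0.0211) in 1421074_at. The siKeap1-1 difference in 1421075_s_at was 0.21 in replicates 1 to 3, and 0.43 in replicates 4 to 8, where 18S differed most. With 18S as a covariate it was 0.26 (adjusted p = 0.347), and the part of 18S in this result was not tested. The third probe set, 1446995_at, was near the bottom of the scale (means of 3.8, 3.58 and 3.3) and was not called.

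Cyp7a1, which catalyses the rate-limiting step of the classic route, was not called with either siRNA. Its brightest probe set, 1438743_at, was at 11.03, 11.86 and 12.62 with siKeap1-1 and at 10.89, 11.58 and 12.33 with siKeap1-2, against 11.28, 11.9 and 13.03 with siControl. The 3 groups overlapped over most of their range, since mice of the same group differed by up to 1.75 on the log2 scale. The difference was -0.14 (SE 0.26, adjusted p = 0.807) with siKeap1-1 and -0.36 (adjusted p = 0.473) with siKeap1-2, and the second probe set, 1422100_at, gave -0.29 and -0.31 (SE 0.369, adjusted p = 0.703 and 0.698). Leaving out siControl replicate 5, the highest siControl mouse, brought the siKeap1-1 difference to 0.0097. A change of the size of the standard error could not be seen with this spread.

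Cyp8b1, the sterol 12α-hydroxylase that leads to cholic acid, was not called either. Its only probe set, 1449309_at, was at 12.5, 13.52 and 13.91 with siKeap1-1 and at 13.08, 13.49 and 13.96 with siKeap1-2, against 12.53, 13.11 and 13.82 with siControl. Of the siKeap1-1 mice 7 and of the siKeap1-2 mice 6 lay above the siControl median, but the ranges overlapped. The difference was 0.22 (SE 0.191, adjusted p = 0.544) and 0.28 (adjusted p = 0.447). In replicates 1 to 3 it was -0.16 with siKeap1-1 and 0.34 with siKeap1-2, and with 18S as a covariate it was -0.11 and -0.04, so that its direction did not hold.

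Abcb11, which encodes the bile salt export pump, was at 11.87, 12.19 and 12.42 with siKeap1-1 and at 11.71, 12.13 and 12.48 with siKeap1-2, against 11.92, 12.39 and 12.87 with siControl. With each siRNA 3 mice lay below every siControl mouse, and 3 siControl mice lay above every treated mouse. The difference was -0.25 with both (SE 0.139, adjusted p = 0.29 with siKeap1-1 and 0.311 with siKeap1-2) and was not called. The call depended on how the spread among mice was handled, as described after the transporters.

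The promoters of 4 of these genes are shown, Cyp27a1 and Slco1a1 because they fell, and Cyp8b1 and Abcb11 because they moved oppositely among mice. Each is the RefSeq sequence (build GRCm38.p6) of the 250 bases before the annotated start, 5′ to 3′ on the strand of the gene, and capitals mark matches on either strand to TGACNNNGC (the core of the antioxidant response element, bound by Nrf2), AGGTCA (a nuclear receptor half-site) or TCAAGG (the core of the LRH-1 site).
Cyp27a1 (chr1:74713285-74713534, plus strand): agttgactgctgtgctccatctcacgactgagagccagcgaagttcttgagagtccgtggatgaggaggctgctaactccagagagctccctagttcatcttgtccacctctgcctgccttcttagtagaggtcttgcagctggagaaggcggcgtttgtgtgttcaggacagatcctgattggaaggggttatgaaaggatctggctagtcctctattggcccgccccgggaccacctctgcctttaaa
Slco1a1 (chr6:141946963-141947212, minus strand): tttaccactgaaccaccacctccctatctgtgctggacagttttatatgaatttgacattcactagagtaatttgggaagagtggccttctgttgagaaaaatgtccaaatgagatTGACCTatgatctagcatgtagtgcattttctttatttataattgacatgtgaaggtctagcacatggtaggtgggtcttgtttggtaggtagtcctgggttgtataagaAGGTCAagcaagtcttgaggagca
Cyp8b1 (chr9:121916306-121916555, minus strand): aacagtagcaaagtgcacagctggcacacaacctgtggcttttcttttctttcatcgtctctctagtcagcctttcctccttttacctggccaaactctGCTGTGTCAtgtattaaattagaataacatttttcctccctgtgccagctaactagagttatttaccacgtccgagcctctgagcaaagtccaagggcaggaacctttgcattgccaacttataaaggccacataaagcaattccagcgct
Abcb11 (chr2:69342617-69342866, minus strand): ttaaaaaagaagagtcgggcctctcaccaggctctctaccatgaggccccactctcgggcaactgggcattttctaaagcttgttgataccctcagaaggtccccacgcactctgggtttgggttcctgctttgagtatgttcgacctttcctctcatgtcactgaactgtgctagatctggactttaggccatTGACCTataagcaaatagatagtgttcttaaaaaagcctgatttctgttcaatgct
The table held 8 of the 10 genes, all but Cyp7a1 and Cyp7b1. The TGACNNNGC letters were in the window of Cyp8b1 alone, between 151 and 143 bases before the start, and in 10.2% of all 32851 promoter windows of this length. An AGGTCA half-site stood in the windows of Abcb11, Slco1b2, Nr1h4, Slco1a1 (2 matches) and 1 of the 2 starts of Slc10a1, and in 14% of all windows. Nr0b2 held 2 matches to TCAAGG, beside 12.5% of all windows with at least 1. The window of Cyp27a1 held none of these letters. Matches describe the sequence and were not measured as binding.

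Slco1a1, an organic anion carrier of the sinusoidal membrane, was lower with siKeap1-1 in 1 of its 2 probe sets. Probe set 1449844_at was at 10.4, 11.25 and 11.55 with siKeap1-1 and at 10.35, 11.48 and 11.75 with siKeap1-2, against 11.54, 11.86 and 12.07 with siControl. Of the siKeap1-1 mice 7 and of the siKeap1-2 mice 5 were below every siControl mouse. The log2 difference was -0.65 (SE 0.176, adjusted p = 0.0197, 0.637-fold) with siKeap1-1 and -0.53 (adjusted p = 0.0725, 0.692-fold) with siKeap1-2. The brighter probe set, 1420379_at, was lower by less and missed the threshold, with -0.26 (SE 0.091, adjusted p = 0.0753) and -0.24 (adjusted p = 0.128). Its siKeap1-1 difference was called without dim probe sets (adjusted p = 0.0455) and with only the siKeap1-1 and siControl arrays in the fit (adjusted p = 0.0334). Averaged over both probe sets the difference was -0.46 with siKeap1-1 and was called (adjusted p = 0.025), while that with siKeap1-2 was not called. In replicates 1 to 3, where 18S overlapped between siKeap1-1 and siControl, the 1449844_at difference was -0.96 with siKeap1-1. In replicates 4 to 8 it was -0.47. With 18S as a covariate it was -0.82 (adjusted p = 0.068). Single arrays moved the calls that were near the threshold: without siKeap1-2 replicate 5 the siKeap1-1 difference of 1420379_at was called (adjusted p = 0.0191), and without siKeap1-1 replicate 2 so was the siKeap1-2 difference of 1449844_at (adjusted p = 0.0456).

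Slc10a1, the sodium-dependent taurocholate carrier, was not called. Its brighter probe set, 1424898_at, was at 13.57, 13.76 and 13.9 with siKeap1-1 and at 13.7, 13.81 and 13.92 with siKeap1-2, against 13.74, 13.9 and 13.98 with siControl, and 7 of the 8 siKeap1-1 mice were below the siControl median. The difference was -0.13 (SE 0.0526, adjusted p = 0.119) and -0.07 (adjusted p = 0.487). The second probe set, 1450261_a_at, divided by replicate number in siKeap1-1, at 11.69 to 11.96 in replicates 1 to 3 and 12.2 to 12.34 in replicates 4 to 8. Its siKeap1-1 difference was -0.24 over all 8 mice (adjusted p = 0.119), -0.66 in replicates 1 to 3 and 0.01 in replicates 4 to 8. With 18S as a covariate it was -0.50 (adjusted p = 0.00952).

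Slco1b2, the liver carrier of bilirubin and bile acids, gave readings that depended on the probe set. The brightest, 1449394_at, was at 13.57, 13.64 and 13.72 with siKeap1-1 and at 13.36, 13.6 and 13.78 with siKeap1-2, against 13.59, 13.68 and 13.83 with siControl, with differences of -0.06 and -0.10 (SE 0.0557, adjusted p = 0.543 and 0.309). Probe set 1452494_s_at instead was higher, by 0.43 (SE 0.163, adjusted p = 0.102) and 0.51 (adjusted p = 0.0657). In siKeap1-1 and siControl it divided as 18S did. In siKeap1-1 it was at 11.36 to 11.72 in replicates 1 to 3 and at 12.06 to 12.3 in replicates 4 to 8, and in siControl it was at 11.69 to 12.17 in replicates 1 to 3 and at 11.09 to 11.46 in replicates 4 to 8. In siKeap1-2, at 11.61 to 12.39, it showed no such order, with 12.03 and 12.02 in the arrays lowest and highest in 18S (replicates 8 and 2). Within replicates 1 to 3 its siKeap1-1 difference was -0.42, within replicates 4 to 8 it was 0.95, and with 18S as a covariate it was -0.17 (adjusted p = 0.621). Its siKeap1-2 difference was 0.07 in replicates 1 to 3, 0.77 in replicates 4 to 8 and -0.08 with 18S as a covariate (adjusted p = 0.916). Probe set 1452494_s_at was called with siKeap1-1 without siKeap1-1 replicate 1 (0.52, adjusted p = 0.0461) or siControl replicate 2 (0.53, adjusted p = 0.033). With siKeap1-2 it was called without siKeap1-2 replicate 1 (0.56), siControl replicate 1 (0.57) or siControl replicate 2 (0.60, adjusted p = 0.0474, 0.0385 and 0.0196). With siKeap1-1, probe set 1427826_a_at showed the same division, with -0.35 in replicates 1 to 3 and 0.99 in replicates 4 to 8. Probe set 1427825_at, dimmer than these, also divided, with -0.53 in replicates 1 to 3 and 0.64 in replicates 4 to 8. Its differences were 0.20 and 0.19 overall and -0.33 and -0.32 with 18S as a covariate, and none of these was called. The remaining probe set, the dim 1452569_at, differed by 0.20 and -0.10 and was not called. The part of 18S in these readings was not tested beyond these values.

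**Figure D3:**
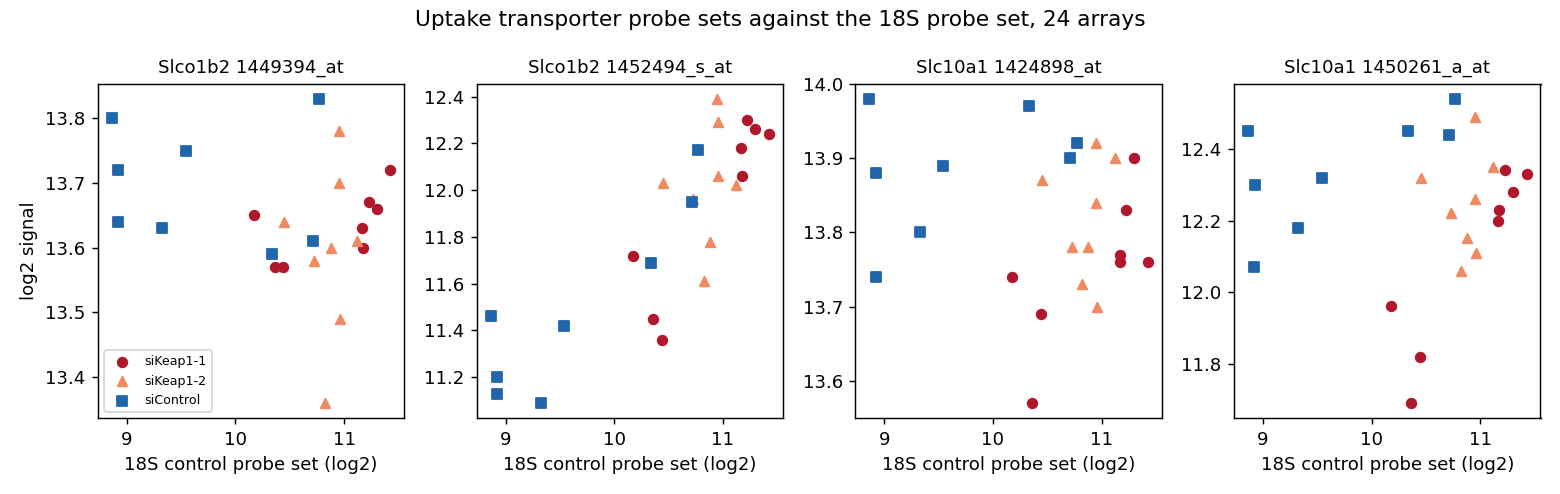
Log2 signal of 2 Slco1b2 and 2 Slc10a1 probe sets (y axes) against the log2 signal of the 18S control probe set (x axes), 1 point per array, circles for siKeap1-1, triangles for siKeap1-2 and squares for siControl, 8 arrays each. Slco1b2 1452494_s_at is low in the 5 siControl arrays with 18S at 9.54 or lower and high in the 5 siKeap1-1 arrays with 18S above 11.1, while 1449394_at shows no such division.

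Nr1h4 encodes FXR, the bile acid receptor. It was at 11.95, 12.12 and 12.25 with siKeap1-1 and at 11.85, 12.05 and 12.25 with siKeap1-2, against 12.1, 12.27 and 12.48 with siControl, and every treated mouse was below the siControl median. The difference was -0.18 (SE 0.0689, adjusted p = 0.113) with siKeap1-1 and -0.24 (adjusted p = 0.0392, 0.848-fold) with siKeap1-2. The siKeap1-2 call was lost without siKeap1-2 replicate 1, 3, 4, 5, 7 or 8 or without siControl replicate 4, 5, 7 or 8, each left out in turn, with differences between -0.24 and -0.21. It was also lost with 18S as a covariate (-0.21, adjusted p = 0.475) and with only the siKeap1-2 and siControl arrays in the fit (adjusted p = 0.0693).

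Nr0b2 encodes SHP, an orphan receptor without a DNA-binding domain that FXR induces. It was at 11.85, 12.09 and 12.68 with siKeap1-1 and at 10.98, 11.92 and 12.53 with siKeap1-2, against 10.93, 11.81 and 12.18 with siControl. All 8 siKeap1-1 mice were above the siControl median, but only 3 were above every siControl mouse. The difference was 0.46 (SE 0.202, adjusted p = 0.165) with siKeap1-1 and 0.23 (adjusted p = 0.565) with siKeap1-2, and neither was called. It was 0.70 in replicates 1 to 3 and 0.32 in replicates 4 to 8 with siKeap1-1, and -0.10 and 0.44 with siKeap1-2.

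Among mice of the same group, Cyp8b1 was high in the same mice in which Abcb11 was low. In siKeap1-1, Cyp8b1 was highest in replicates 2, 4, 5 and 7 (13.64 to 13.91, against 12.5 to 13.4 in the other mice), and these 4 also had the lowest Abcb11 (11.87 to 12.18, against 12.2 to 12.42). In siKeap1-2 the 4 mice highest in Cyp8b1 were replicates 2, 3, 5 and 6 (13.61 to 13.96, against 13.08 to 13.36), and they had the lowest Abcb11 (11.71 to 12.11, against 12.14 to 12.48). In siControl replicates 2, 4 and 5 were highest in Cyp8b1 (13.61 to 13.82, against 12.53 to 13.12) and lowest in Abcb11 (11.92 to 12.16, against 12.33 to 12.87). Cyp7a1 divided in the same way in siKeap1-1 (11.94 to 12.62, against 11.03 to 11.78 in the other 4 mice) and in siControl (12.39 to 13.03, against 11.28 to 12.04 in the other 5). In siKeap1-2 it overlapped, at 11.53 to 12.33 against 10.89 to 11.63, since replicate 6 was below replicate 4. A first component was taken of the residuals from the group means. Probe sets annotated to these genes or to the further bile acid genes alone were left out of it. The component held 16.9% of the variance of the residuals used. It was above 0 in the 11 arrays high in Cyp8b1 (0.105 to 0.336) and below 0 in the other 13 (-0.29 to -0.076). What sets these arrays apart is not in the labels and was not tested.

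**Figure D4:**
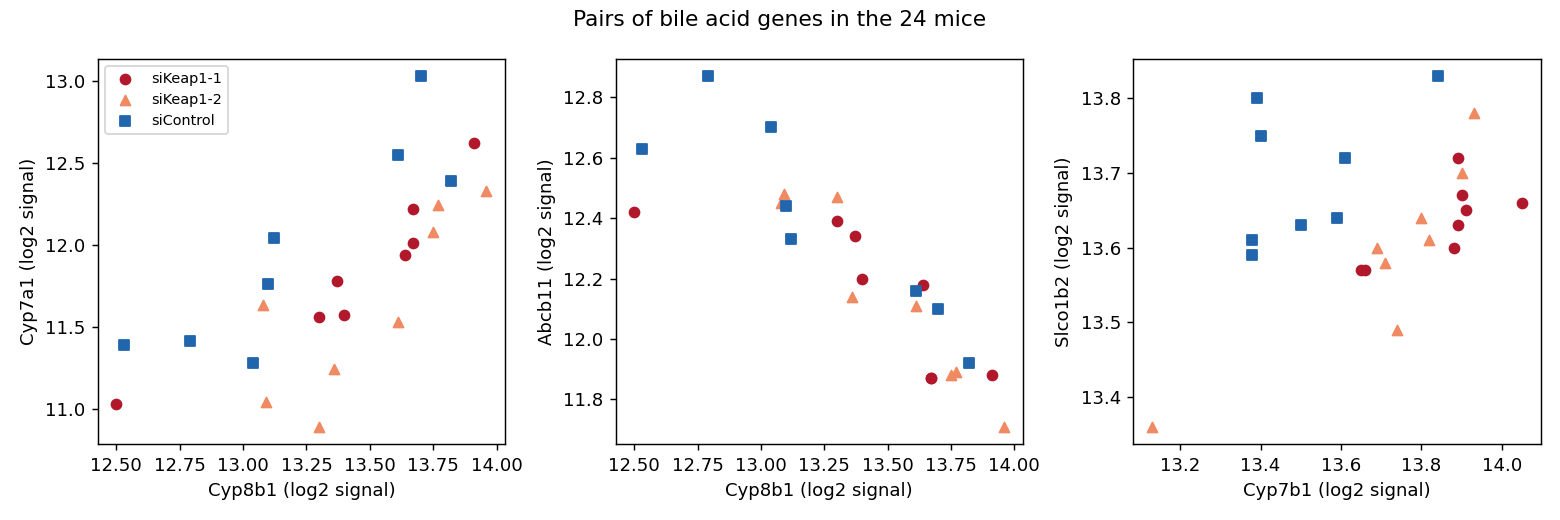
Log2 signals of Cyp7a1 and Abcb11 against Cyp8b1, and of Slco1b2 against Cyp7b1 (brightest probe sets), 1 point per mouse, circles for siKeap1-1, triangles for siKeap1-2 and squares for siControl, 8 mice each. Abcb11 is at 11.71 to 12.18 in the 11 mice with Cyp8b1 at 13.61 or above and at 12.14 to 12.87 in the other 13.

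Over all 24 arrays with group means removed, 13 of the 45 pairs of these genes passed an adjusted permutation p of 0.05, of which 9 were positive and 4 negative. This count describes arrays that fall on both sides of a gap, and no coefficient is given for the pairs. With each side taken alone (11 arrays above 0 and 13 below), 0 relations passed, with adjustment over the 90 of both sides. At an unadjusted permutation p under 0.05 there were 4 above 0 and 12 below 0. Cyp7a1, Cyp8b1 and Abcb11 themselves follow the component that sets the gap. Their spread within a side is therefore narrowed, and these tests cannot decide their relations.

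With the component as a covariate the differences stayed as they were, since it is orthogonal to the groups, but their standard errors shrank for the genes that followed it. The SE of Abcb11 became 0.0577 and both differences were then called (adjusted p = 0.00506 with siKeap1-1 and 0.00686 with siKeap1-2). That of Cyp8b1 became 0.0867 and the siKeap1-2 difference was called (adjusted p = 0.0466), while siKeap1-1 was not (adjusted p = 0.105). That of Cyp7a1 became 0.13, and neither siRNA was called (adjusted p = 0.554 and 0.0876). The component was computed from these same arrays, and with 18S as the covariate the Abcb11 differences were -0.03 and -0.04 (adjusted p = 0.959 and 0.969).

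A further 35 genes of bile acid synthesis, conjugation, efflux, uptake and control were measured, each by its brightest probe set. This list was also chosen with earlier results of these data known. Its counts beside the shares of all genes therefore describe the list and cannot test it. With siKeap1-1, 6 rose and 2 fell, beside 9.49% of all 18193 genes called (4.82% higher and 4.67% lower). With siKeap1-2 also 6 rose and 2 fell, beside 6.6% (2.85% higher and 3.75% lower). Their median log2 difference was -0.03 and -0.01, beside 0.01 and -0.01 over all genes. In 1 gene the siRNAs differed from each other, beside 0.242% of all genes.

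Of the 9 genes listed here under canalicular and basolateral efflux 5 rose with both siRNAs, beside 4.82% and 2.85% of all genes called higher. Abcc4, which encodes the basolateral exporter MRP4, was at 11.11, 11.96 and 12.25 with siKeap1-1 and at 10.28, 10.62 and 11.32 with siKeap1-2, against 6.84, 7.33 and 7.65 with siControl. It rose by 4.52 (SE 0.179, adjusted p = 8.43e-15) and 3.49 (adjusted p = 2.59e-12) on the log2 scale, and was higher with siKeap1-1 than with siKeap1-2 by 1.04 (adjusted p = 0.0087). Abcc3 (MRP3, basolateral) rose by 1.14 and 1.04 (adjusted p = 4.88e-06 and 3.21e-05) and Abcg8, a subunit of the canalicular sterol transporter, by 0.59 and 0.54 (adjusted p = 0.00463 and 0.0133). With 18S as a covariate Abcg8 was not called (0.64 and 0.58, adjusted p = 0.0569 and 0.185). Chosen after their values were seen, Abcg5, its partner subunit, rose by 0.46 and 0.43, and Abcc2 (MRP2, canalicular) by 0.41 and 0.33. The genes listed here under efflux that were not called were Abcb4, Atp8b1, Slc51a and Slc51b, and Abcb11 was not called either. The list is wider than exporters, and Atp8b1 is in it as a gene of the canalicular membrane. Slc51a was near the bottom of the scale, at 3.36 to 4.11 over all arrays. Slc51b spread from 5.72 to 8.71 within siControl, so a change in either of these 2 could have been missed.

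Of the 12 further genes of synthesis and side chain cleavage 1 was called with each siRNA, beside 9.49% and 6.6% of all genes. This was Acox2, the peroxisomal oxidase of the bile acid side chain. It was at 11.82, 11.92 and 12.21 with siKeap1-1 and at 11.69, 11.83 and 11.99 with siKeap1-2, against 11.1, 11.29 and 11.74 with siControl, and it rose by 0.57 and 0.47 (SE 0.0864, adjusted p = 0.000115 and 0.00167). Neither of the 2 genes listed here under conjugation (Baat and Acot8) was called, nor was either of the 2 further uptake carriers. At an unadjusted p under 0.05 (limma) 1 of these carriers was lower with each siRNA, beside 23% and 20.5% of all probe sets in either direction. Slco1a4 was at 8.62 to 10.25 with siKeap1-1 and 8.79 to 11.26 with siKeap1-2, against 9.91 to 10.9 with siControl. Slco2b1 was at 12.39 to 12.89 and 12.59 to 12.98, against 12.6 to 13.0. Beside 4.67% and 3.75% of all genes called lower, 2 of the 10 regulators fell with each siRNA. These were, chosen after their values were seen, Fgfr4 with both (the hepatic receptor for FGF15, fell by 0.46 and 0.40, adjusted p = 0.00492 and 0.0173), Ppargc1a with siKeap1-1 (a coactivator, fell by 0.56, adjusted p = 0.00899) and Nr1i2 with siKeap1-2 (PXR, fell by 0.32, adjusted p = 0.0378).

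**Figure D5:**
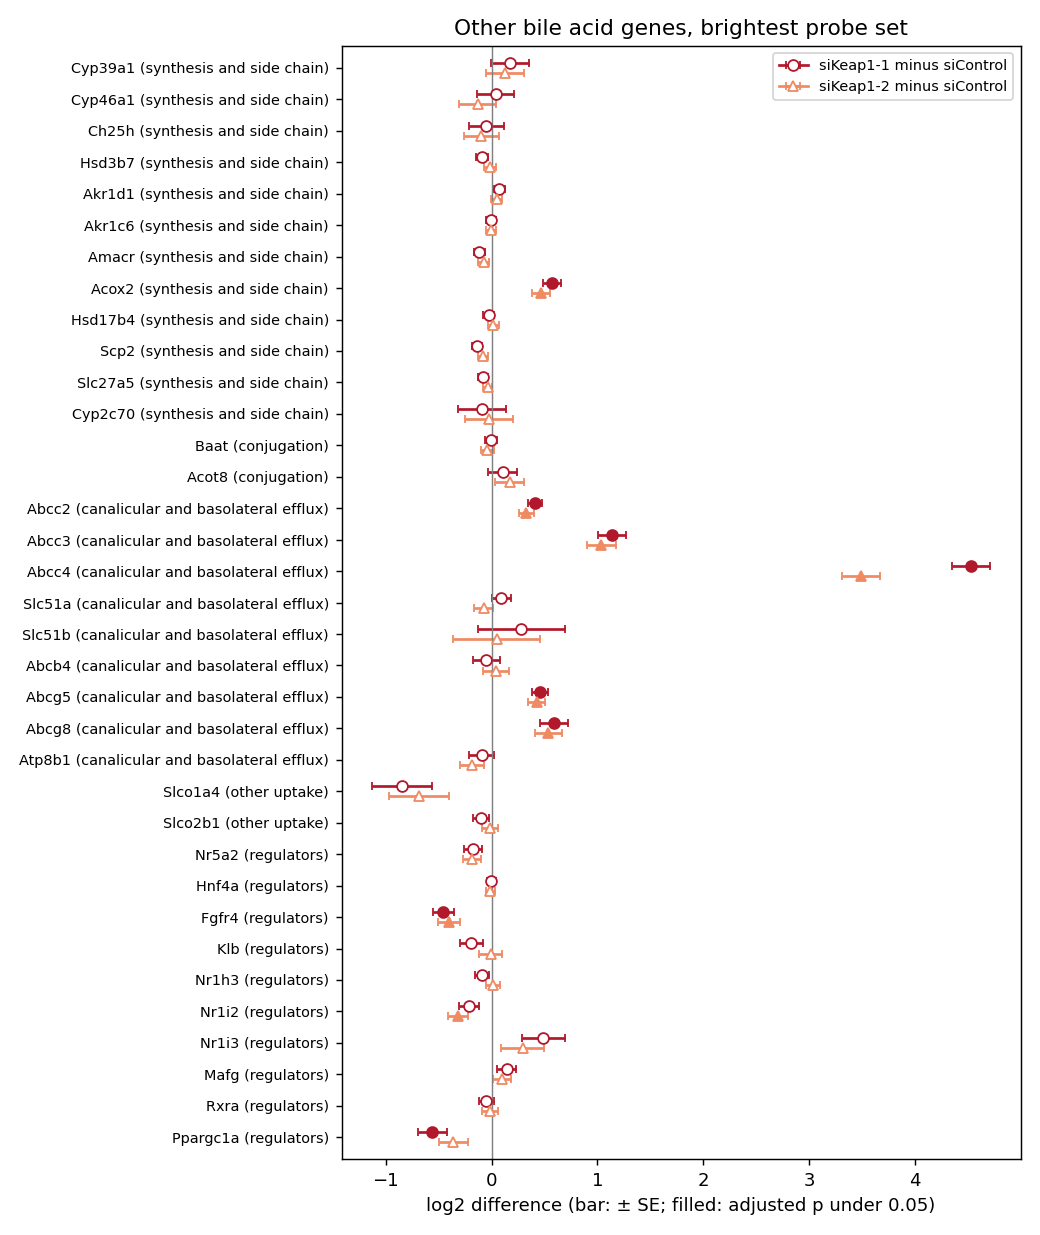
Log2 difference from siControl (x axis, bars ± SE of the fit) of the brightest probe set of 35 further bile acid genes (y axis, role in brackets), circles for siKeap1-1 and triangles for siKeap1-2, 8 mice per group, filled where the adjusted p was under 0.05. The 5 efflux genes Abcc2, Abcc3, Abcc4, Abcg5 and Abcg8 are filled to the right of 0 with both siRNAs, as is Acox2.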

How the data were processed

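Liver RNA of 24 mice was hybridised to Affymetrix whole genome arrays for the mouse, 1 array per mouse. The authors deposited log2 signals per probe set made with RMA (background correction, quantile normalization and summary over probes), a tool whose version the sources used here do not give. Per the labels, groups are those of the siRNA. Of 45101 probe sets 64 controls were left out, and no filter on dim signals was applied. Platform annotation names 1 gene for 34945 probe sets, several for 932 and none for 9160. The 3 groups were fitted together with limma 3.58.1 in R 4.3.3 (lmFit, eBayes), with Benjamini-Hochberg adjustment over 45037 probe sets and a threshold of 0.05. The methods name an ANOVA with a second factor that the labels do not give, so it was not fitted. The fit was tested on simulated data. Permutation tests used Python 3.11.15 with scipy 1.17.1, and figures matplotlib 3.10.9.

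The genes and the list of 38 further bile acid genes, of which 35 were measured and 3 not used here, were chosen with earlier results of these data known. Named were all 10 genes with all their probe sets, up to 4 called genes of the further list per comparison with the largest difference, for each of the 10 genes the 2 genes most like it, and Keap1 and Nqo1. The 18S covariate is the control probe set, left out of the tests. The number of arrays limits the precision. The labels do not state that arrays are of separate animals, which is taken from the methods. Alternatives covered normalization, centring, dim probe sets, moderation, array weights, samples in the fit, the replicate block, covariates, probe sets, thresholds and each array left out.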

Additional observations from a re-analysis of the deposited data

Results flagged for a closer look

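Single mice stood far from the other 7 of their group in 4 of 72 groups of 8 checked by Dixon's test, of which chance marks about 1 in 20. Replicate 1 of siKeap1-2 was low in both bright Cyp7b1 probe sets, at 12.49 in 1421074_at (13.02 to 13.45 in the other 7 mice) and at 13.13 in 1421075_s_at (13.69 to 13.93). Replicate 3 of siKeap1-1 was low in Cyp8b1, at 12.5 against 13.3 to 13.91. Replicate 2 of siKeap1-1 was low in Slco1a1 1449844_at, at 10.4 against 11.01 to 11.55. Between the siRNAs, Abcc4 differed by 1.04 on the log2 scale (siKeap1-1 minus siKeap1-2, limma, adjusted p = 0.0087).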

How the results depend on the processing

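Of 1776 recomputed single differences (51 results), 1698 kept their direction and side of the threshold, 22 lost a call, 30 gained one (8 of them under the exact permutation test, whose p is unadjusted) and 26 turned sign. Calls among the 20 probe sets numbered 4 to 5 with siKeap1-1 and 1 to 4 with siKeap1-2 when single arrays were left out, and those among the 35 further genes 8 to 9 and 7 to 9. With siKeap1-1 the probe set calls were 1 with 18S as a covariate, 1 at an adjusted p under 0.01 and 0 at a fold over 2, and those of the further genes 5 with 18S and 2 at a fold over 2. With siKeap1-2 they were 4 without dim probe sets, 1 with only the 2 groups in the fit, 0 with 18S, 5 with the residual component, 0 under 0.01 and 0 over 2-fold, and those of the further genes 3 with 18S, 5 under 0.01 and 2 over 2-fold. With 18S both estimates and standard errors moved, and the cause of the lost calls was not tested. Shares of all probe sets called are not given here for 18S, the component, the 2-group fit or the fit without dim probe sets.

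Direction turned for Cyp8b1 with 18S (-0.11 with siKeap1-1 and -0.0395 with siKeap1-2), for Slco1b2 1452494_s_at with 18S (-0.17 and -0.0764), and for Slco1b2 as the mean over its probe sets (0.25 and 0.18). Without single arrays, Cyp7a1 with siKeap1-1 lay between -0.25 and 0.0097. Between the siRNAs the differences near 0 crossed it, with ranges of -0.13 to 0.075 for Cyp8b1, -0.06 to 0.051 for Abcb11 (-0.0053 after repeated quantile normalization), -0.11 to 0.007 for Slco1a1 1420379_at, -0.13 to 0.011 for Slco1b2 1452494_s_at and -0.0037 to 0.10 for Abcg8, and Cyp27a1 was 0.13 as the mean over probe sets. The cause was not tested.

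The labels give replicate numbers 1 to 8 in each group but do not say that they mark a shared batch. Deviations of arrays with the same number correlated between -0.319 and 0.547, and 3 of 24 pairings were best with their own number. With the replicate block 5 probe sets were called with siKeap1-1 and 2 with siKeap1-2, Slco1a1 1420379_at gaining the call with siKeap1-1 (adjusted p = 0.0443) and 1449844_at with siKeap1-2 (adjusted p = 0.0448), and Nr1h4 losing it with siKeap1-2 (adjusted p = 0.0529). The number of correlated pairs, 13 over all arrays, was 11 to 15 without single arrays and 10 to 11 under the other settings, all chosen after seeing the data.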

Other observations

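The genes whose brightest probe set was most like a bile acid gene over the 24 arrays, with group means removed, are given as a description, since all pairs share arrays and the residual component, and the coefficients span the gap between its sides. Cyp8b1 was closest to Pigp (r = 0.959) and Cmbl (r = 0.933), Abcb11 to Nhej1 (r = 0.92) and Stra6l (r = 0.919), and Cyp7a1 to Slc27a1 (r = 0.899), a fatty acid transporter, and Decr1 (r = 0.897), an enzyme of mitochondrial fatty acid oxidation. Slco1a1 was closest to Hsd3b5 (r = 0.885), a steroid dehydrogenase of male liver, and Serpina12 (r = 0.881). Slco1b2 was closest to Plpp3 and Mug1 (r = 0.841 and 0.836), Cyp27a1 to Psmd12, a proteasome subunit, and Gulo (r = 0.846 and 0.841), Nr1h4 to Sox6os and Eri3 (r = 0.833 and 0.813) and Slc10a1 to Klkb1 and Prmt5 (r = 0.801 and 0.799). For Cyp7b1 (Rarres1 and Mup10, r = 0.733 and 0.724) and Nr0b2 (Plet1os and E2f2, r = 0.737 and 0.731) the likeness was lower.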
